A study of Homo sapiens with 12 samples.

Results

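Aminoacyl-tRNA synthetases are the enzymes that join each amino acid to its tRNA, and 35 of their genes were followed here across 12 arrays of a human breast epithelial line. The rule takes them by gene symbol and uses no measured value, but the family was picked with earlier results of these data known. Of the 35, 19 genes encode cytosolic enzymes and 16, whose symbols end in 2, encode mitochondrial ones. All 35 matched a probe set that names a single gene, out of 18417 genes tested. The line, MCF10A-HER2-FKBP-HA, is derived from the non-tumorigenic line MCF10A and carries, in every group, a stably transfected full-length human HER2 chimera with FKBP and HA tags. The labels name neither the promoter of the transgene nor whether the line is 1 clone. Cells received AP1510, TGF-alpha or Heregulin for 48 hours, or were Untreated, with 3 arrays in each of the 4 groups. AP1510 is a synthetic compound that binds 2 FKBP domains at once and so brings the chimeric receptors together. TGF-alpha binds EGFR, and Heregulin binds HER3 and HER4, the relatives with which HER2 forms mixed pairs.

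The design asks how transcript levels differ among HER2 chimeras paired with one another, EGFR ligand and HER3 or HER4 ligand. All groups were kept before the experiment in medium with 5% horse serum and 20 ng/ml EGF. Both were withdrawn 24 hours before ligand, while cholera toxin (100 ng/ml), hydrocortisone (500 ng/ml) and insulin (10 microgram/ml) stayed. The labels name no dose, vehicle, batch or harvest time for Untreated cells, so time in culture and treatment cannot be told apart in contrasts against Untreated. Each condition was set up in triplicate dishes, and the p-values rest on how far those dishes and arrays varied.

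A synthetase activates its amino acid with ATP and transfers it to the matching tRNA, which the ribosome then reads. Human cells use separate sets of these enzymes for cytosolic and mitochondrial translation, mostly encoded by separate nuclear genes, although GARS1 and KARS1 each supply both compartments. Several cytosolic enzymes sit together in the multisynthetase complex. Many cytosolic synthetase genes are known targets of ATF4, a transcription factor of the amino acid and stress response that binds C/EBP-ATF response elements.

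Values are deposited log2 intensities, on which a difference of 1 is a doubling. Each gene was measured by 1 probe set, and levels are compared only between groups for the same gene. Changes are given as the log2 difference ± its standard error (3 arrays a group), and a gene was called when its limma p, adjusted by Benjamini-Hochberg over all 18417 genes, was below 0.05. The values are scaled to a common distribution per array, so fewer cells and less RNA per cell cannot be told apart, and a change is relative to the other transcripts. Of the 35 genes, 34 averaged above the median of all genes (5.97); AARS2 lay below it. All 8 measured mammary epithelial markers were above that median, as were 2 of 7 leukocyte, 1 of 6 endothelial and 3 of 8 fibroblast markers. The 2 leukocyte markers were CD14 and CD68, which averaged 9.61 and 7.91 in Untreated arrays. PTPRC and CD3E, which define leukocytes and T cells, were below the median. By the F test over the 4 groups, 17 of 19 cytosolic and 4 of 16 mitochondrial synthetases differed, against 28.5% of all genes.

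Cytosolic synthetases rose together with TGF-alpha. Against Untreated, 15 of the 19 were called higher and 0 lower, where 26% of all genes were called, 12.5% higher and 13.4% lower. Their median log2 change was 0.80, with a range of -0.18 to 1.38, and the median of all genes was -0.01. The 15 that rose did so by 1.43-fold (HARS1) to 2.60-fold (GARS1). In 18 of the 19 the TGF-alpha arrays did not overlap the Untreated arrays, which held for 40.2% of all genes. RARS1 was the gene that overlapped. In QARS1, the gene with a negative change, the TGF-alpha arrays lay below the Untreated ones.

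**Figure D1:**
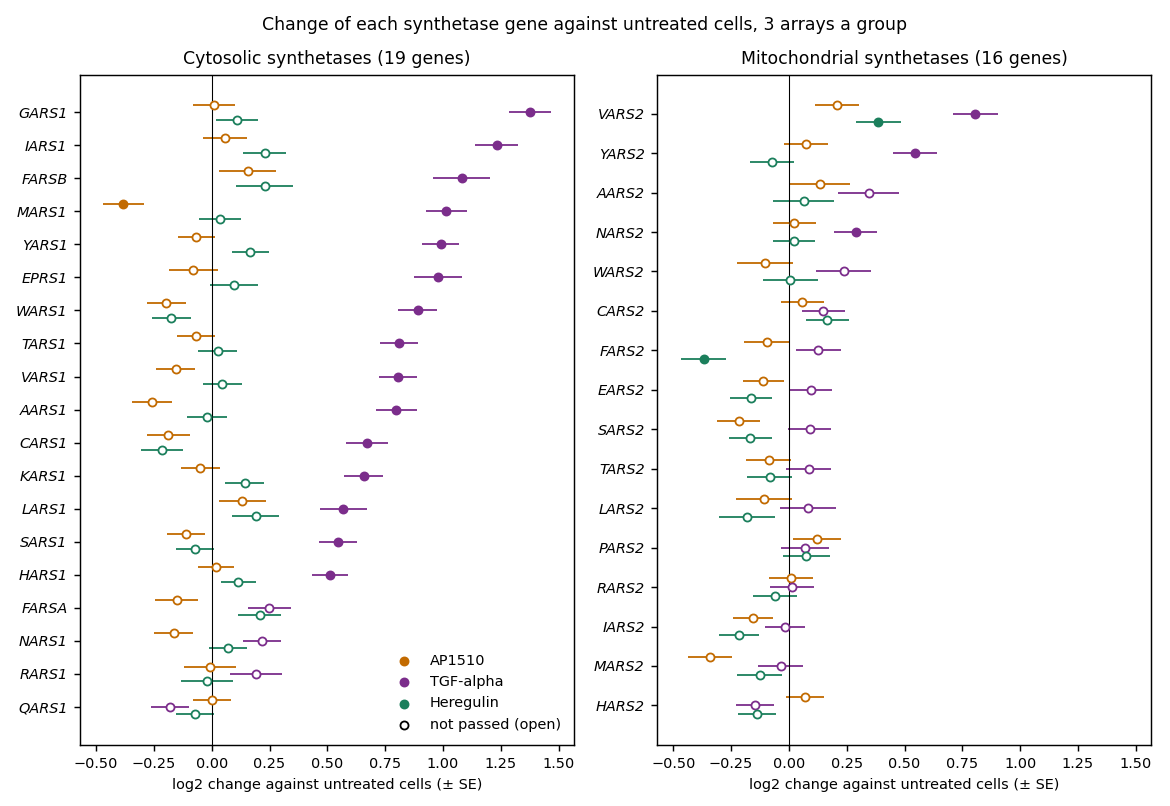
Log2 change of each of the 35 synthetases against Untreated with AP1510, TGF-alpha and Heregulin (3 arrays a group); points are limma estimates, bars are ± 1 standard error, and open points did not pass the test. With TGF-alpha most cytosolic genes stand to the right of 0, up to 1.38 for GARS1, while most mitochondrial genes and both other treatments lie near 0.

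GARS1, the glycyl-tRNA synthetase of both compartments, had the largest change of the 35. Its level was 9.99, 9.84 and 9.81 in AP1510 arrays, 11.17, 11.27 and 11.31 in TGF-alpha arrays and 10.11, 9.87 and 9.97 in Heregulin arrays, against 9.94, 9.89 and 9.78 in Untreated arrays. The 3 TGF-alpha arrays stood more than 1 log2 unit above every other array, and the other groups overlapped. The change with TGF-alpha was 1.38 ± 0.09 (2.60-fold, limma adjusted p = 1.7e-08). KARS1, the lysyl enzyme that likewise serves both compartments, had 9.27, 9.01 and 9.08 in AP1510 arrays, 9.84, 9.87 and 9.77 in TGF-alpha arrays and 9.34, 9.29 and 9.31 in Heregulin arrays, against 9.21, 9.14 and 9.16 in Untreated arrays. Again the TGF-alpha arrays were the highest, by 0.66 ± 0.08 over Untreated (1.58-fold, limma adjusted p = 1.6e-05). Without these 2 genes of both compartments, 13 of 17 cytosolic synthetases were called higher.

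Of the 7 enzymes of the multisynthetase complex, 5 rose with TGF-alpha (IARS1, MARS1, EPRS1, KARS1 and LARS1) and 2, QARS1 and RARS1, did not pass the test. IARS1, the isoleucyl enzyme, had 9.97, 9.66 and 9.73 in AP1510 arrays, 10.98, 11.02 and 10.89 in TGF-alpha arrays and 10.06, 9.85 and 9.97 in Heregulin arrays, against 9.71, 9.75 and 9.73 in Untreated arrays. Its TGF-alpha arrays were the highest, at 1.23 ± 0.09 over Untreated (2.35-fold, limma adjusted p = 7.0e-08). MARS1, the methionyl enzyme that charges both initiator and elongator tRNA, had 7.86, 7.89 and 8.04 in AP1510 arrays, 9.32, 9.32 and 9.34 in TGF-alpha arrays and 8.51, 8.29 and 8.25 in Heregulin arrays, against 8.37, 8.30 and 8.27 in Untreated arrays. Its TGF-alpha arrays were the highest and its AP1510 arrays the lowest of the 12, with no overlap of either with Untreated. The change with TGF-alpha was 1.02 ± 0.09 (2.02-fold, limma adjusted p = 2.9e-07).

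EPRS1, which joins a glutamyl and a prolyl enzyme in 1 protein, had 9.24, 8.95 and 9.11 in AP1510 arrays, 10.13, 10.21 and 10.13 in TGF-alpha arrays and 9.41, 9.12 and 9.30 in Heregulin arrays, against 9.26, 9.01 and 9.27 in Untreated arrays. The TGF-alpha arrays stood apart and the other groups overlapped (0.98 ± 0.10, 1.97-fold, limma adjusted p = 2.5e-06). LARS1, the leucyl enzyme and a leucine sensor of mTORC1 signalling, rose by 0.57 ± 0.10 (1.48-fold, limma adjusted p = 0.000425). The arginyl enzyme RARS1 changed by 0.19 ± 0.11, with a 95% interval of -0.05 to 0.43. The glutaminyl enzyme QARS1 had 9.27, 9.24 and 9.25 in AP1510 arrays, 9.01, 9.12 and 9.10 in TGF-alpha arrays and 9.31, 9.09 and 9.15 in Heregulin arrays, against 9.21, 9.26 and 9.29 in Untreated arrays. It was the cytosolic gene with its lowest mean in TGF-alpha cells, a difference of -0.18 ± 0.08 that did not pass the test (limma adjusted p = 0.14). Of the complex's 3 scaffold genes, AIMP1 alone was measured here and changed by -0.01 ± 0.11 (limma adjusted p = 0.96), while AIMP2 and EEF1E1 were not analysed here.

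**Figure D2:**
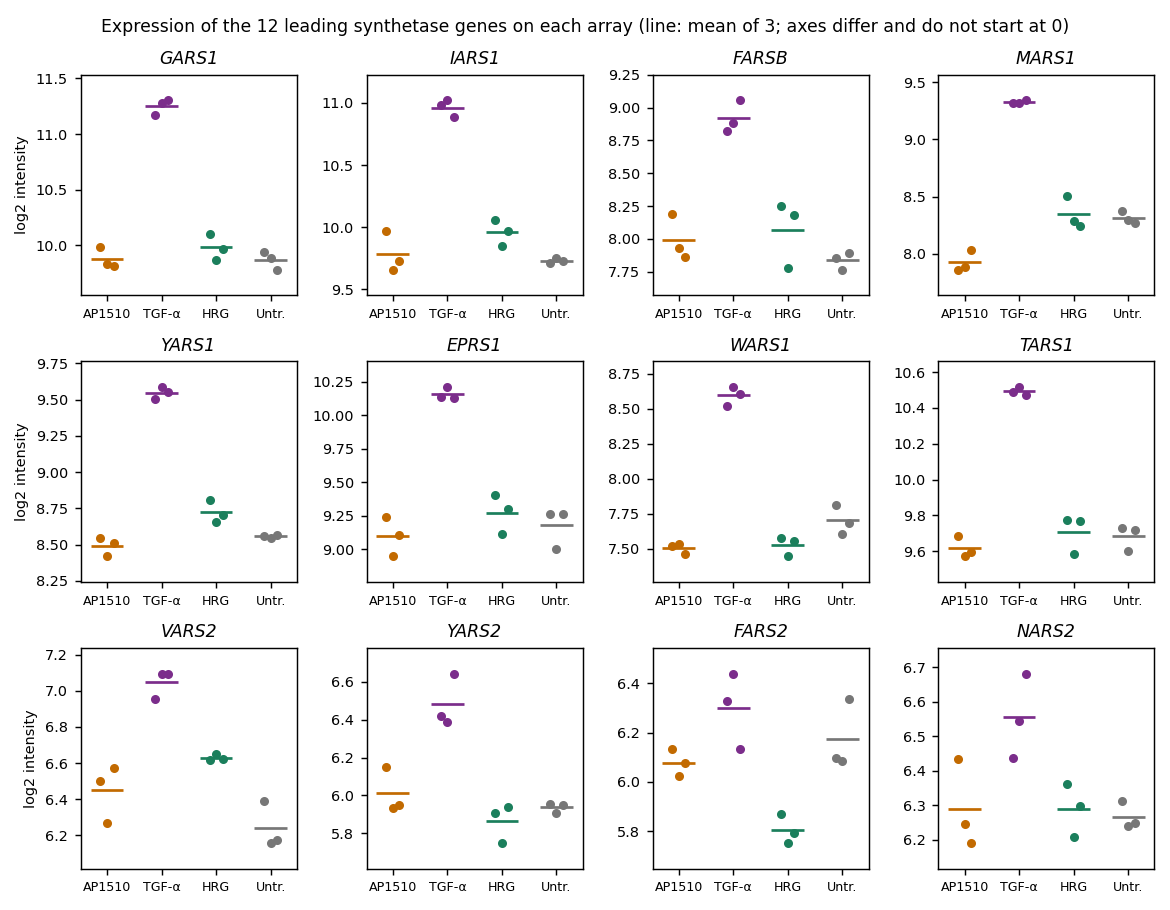
Deposited log2 intensity on each of the 12 arrays for the 8 cytosolic and 4 mitochondrial synthetases with the largest called changes against Untreated, by group. Points are single arrays, lines are means of 3, and the vertical axes differ and do not start at 0; in the cytosolic panels the TGF-alpha points lie above all others, as for GARS1 (11.17 to 11.31, against 9.78 to 9.94 in Untreated cells).

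Among enzymes outside the complex, YARS1, the tyrosyl enzyme, had 8.54, 8.42 and 8.51 in AP1510 arrays, 9.50, 9.59 and 9.55 in TGF-alpha arrays and 8.81, 8.65 and 8.71 in Heregulin arrays, against 8.56, 8.54 and 8.57 in Untreated arrays. TGF-alpha arrays were the highest, by 0.99 ± 0.08 (1.99-fold, limma adjusted p = 1.1e-07), and the Heregulin arrays also lay above the Untreated ones without passing the test. TARS1, the threonyl enzyme, had 9.68, 9.57 and 9.59 in AP1510 arrays, 10.49, 10.52 and 10.47 in TGF-alpha arrays and 9.77, 9.58 and 9.77 in Heregulin arrays, against 9.73, 9.60 and 9.72 in Untreated arrays. The TGF-alpha arrays stood 0.81 ± 0.08 above Untreated (1.75-fold, limma adjusted p = 1.7e-06). The valyl enzyme VARS1 (0.81 ± 0.08), the alanyl AARS1 (0.80 ± 0.09), the cysteinyl CARS1 (0.67 ± 0.09) and the seryl SARS1 (0.55 ± 0.08) also rose. VARS1 has another probe set on the array, which held identical values.

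WARS1, the tryptophanyl enzyme, is also known as an interferon-inducible gene. It had 7.52, 7.53 and 7.46 in AP1510 arrays, 8.52, 8.66 and 8.61 in TGF-alpha arrays and 7.58, 7.45 and 7.55 in Heregulin arrays, against 7.82, 7.61 and 7.68 in Untreated arrays. It rose with TGF-alpha by 0.89 ± 0.08 (1.85-fold, limma adjusted p = 6.8e-07), and its AP1510 and Heregulin arrays all lay below the Untreated ones without passing the test. Of 10 other interferon-gamma inducible genes measured, 6 fell and 0 rose with TGF-alpha, among them GBP2, a guanylate-binding protein (-3.30 ± 0.16), and the transcription factor IRF1 (-2.28 ± 0.18). In the TGF-alpha arrays the 6 genes and WARS1 moved in opposite directions. GBP2 and IRF1 were also called lower with AP1510 (-0.83 ± 0.16 and -0.83 ± 0.18) and with Heregulin (-0.88 ± 0.16 and -0.82 ± 0.18). Of the 10, AP1510 gave 0 calls higher and 3 lower, where 0.771% and 0.7% of all genes were called. Heregulin gave 2 higher and 2 lower, where 3.45% and 5.06% of all genes were called.

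The phenylalanyl enzyme is built from 2 kinds of subunit, and their transcripts were not called alike. FARSB, the beta subunit, had 8.19, 7.93 and 7.86 in AP1510 arrays, 8.82, 8.88 and 9.06 in TGF-alpha arrays and 8.25, 7.78 and 8.18 in Heregulin arrays, against 7.86, 7.77 and 7.89 in Untreated arrays. It rose with TGF-alpha by 1.08 ± 0.12 (2.12-fold, limma adjusted p = 4.8e-06). FARSA, the catalytic alpha subunit, had 8.73, 8.48 and 8.52 in AP1510 arrays, 8.86, 9.06 and 9.02 in TGF-alpha arrays and 8.93, 8.94 and 8.94 in Heregulin arrays, against 8.83, 8.73 and 8.63 in Untreated arrays. Its TGF-alpha arrays were also above Untreated, but by 0.25 ± 0.09 (95% interval 0.05 to 0.45, limma adjusted p = 0.062). The intervals of the 2 subunits do not overlap, and the difference between them was not itself tested. NARS1, the asparaginyl enzyme, was the remaining cytosolic gene short of the threshold, at 0.22 ± 0.08 (95% interval 0.04 to 0.39, limma adjusted p = 0.064), with all 3 TGF-alpha arrays above the Untreated ones.

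Synthetases fall into 2 unrelated structural classes, which build their active sites on different folds. Counting both compartments, and EPRS1 in each class, 10 of 19 class I genes and 9 of 17 class II genes were called higher with TGF-alpha. Of the 13 cytosolic synthetases listed as ATF4 targets, 12 rose with a median of 0.81, the exception being NARS1. Of the other 6 cytosolic genes 3 rose (FARSB, HARS1 and KARS1), with a median of 0.38. The difference between these lists was not tested.

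Of the 16 mitochondrial synthetases, 3 were called higher and 0 lower with TGF-alpha, beside the 12.5% of all genes called higher. Their median log2 change was 0.09, with a range of -0.15 to 0.81. VARS2, the mitochondrial valyl enzyme, had 6.50, 6.27 and 6.57 in AP1510 arrays, 6.95, 7.09 and 7.09 in TGF-alpha arrays and 6.61, 6.65 and 6.62 in Heregulin arrays, against 6.39, 6.16 and 6.18 in Untreated arrays. Both TGF-alpha and Heregulin arrays lay above every Untreated array, and the change with TGF-alpha was 0.81 ± 0.10 (1.75-fold, limma adjusted p = 8.6e-06). Its other probe set gave 0.81 as well. YARS2, the tyrosyl enzyme, had 6.15, 5.93 and 5.95 in AP1510 arrays, 6.42, 6.39 and 6.64 in TGF-alpha arrays and 5.91, 5.75 and 5.94 in Heregulin arrays, against 5.95, 5.91 and 5.95 in Untreated arrays, and rose with TGF-alpha by 0.54 ± 0.10 (1.46-fold, limma adjusted p = 0.000369).

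NARS2, the mitochondrial asparaginyl enzyme, had 6.43, 6.25 and 6.19 in AP1510 arrays, 6.44, 6.55 and 6.68 in TGF-alpha arrays and 6.36, 6.21 and 6.30 in Heregulin arrays, against 6.31, 6.24 and 6.25 in Untreated arrays. Its TGF-alpha arrays lay above the Untreated ones, by 0.29 ± 0.09 (1.22-fold, limma adjusted p = 0.029), and the call was lost without TGF-alpha replicate 2 or 3 or Untreated replicate 2 or 3, with an adjusted p of up to 0.14. The other 13, HARS2 among them, did not pass. Of these, the alanyl enzyme AARS2 (0.35 ± 0.13) and the tryptophanyl WARS2 (0.24 ± 0.12) had the highest values. The isoleucyl IARS2 (-0.02 ± 0.09), the methionyl MARS2 (-0.04 ± 0.10) and the arginyl RARS2 (0.01 ± 0.10) were near 0. CARS2, EARS2, FARS2, LARS2, PARS2, SARS2 and TARS2 lay between 0.07 and 0.15. EARS2 and PARS2 charge the mitochondrial tRNAs for glutamate and proline and have no separate cytosolic counterpart, since EPRS1 does both in the cytosol.

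**Figure D3:**
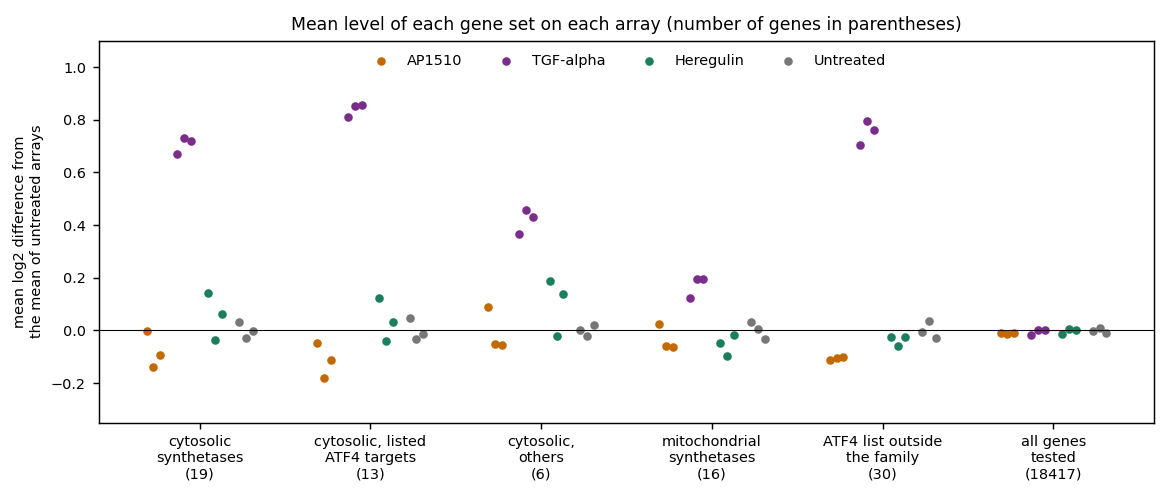
Mean log2 difference from the Untreated mean, 1 point per array, for the 19 cytosolic synthetases, the 13 of them listed as ATF4 targets, the other 6, the 16 mitochondrial synthetases, the ATF4 list outside the family and all genes tested. TGF-alpha arrays stand at 0.67 to 0.73 for the cytosolic and 0.12 to 0.20 for the mitochondrial set, and in both sets the AP1510, Heregulin and Untreated arrays lie between -0.14 and 0.14.

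Averaged per array, the cytosolic set lay 0.67, 0.73 and 0.72 above the Untreated mean in the 3 TGF-alpha arrays, and the Untreated arrays themselves spread from -0.03 to 0.03. The mitochondrial set lay 0.12, 0.19 and 0.20 above it in the same TGF-alpha arrays, with Untreated arrays again between -0.03 and 0.03. AP1510 arrays ran from -0.14 to 0.00 in the cytosolic and from -0.06 to 0.02 in the mitochondrial set, and Heregulin arrays from -0.04 to 0.14 and from -0.10 to -0.02. By group means, TGF-alpha was the highest group in 18 of 19 cytosolic and 11 of 16 mitochondrial genes. Marker lists moved in the same TGF-alpha arrays, with 6 of 8 epithelial markers called higher and 1 lower, and 2 of 7 leukocyte markers called lower. Of 6 endothelial markers 1 was called higher and 1 lower, and likewise of 8 fibroblast markers. Among all genes, 12.5% were called higher and 13.4% lower. The mean level of the epithelial markers was 10.7 to 10.8 in TGF-alpha arrays, against 10.2 in Untreated ones. That of the leukocyte markers was 4.63 to 4.69, against 5.13 to 5.15. The 2 lower leukocyte markers were CD14 (mean 7.23 with TGF-alpha, 9.61 in Untreated) and CD68 (7.11 and 7.91). PTPRC (3.01 and 3.01) and CD3E (4.49 and 4.48) stayed level. The part of these markers in the results was not tested.

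For 13 amino acids the 35 hold exactly 1 cytosolic and 1 mitochondrial synthetase gene, and these pairs set the compartments side by side for the same amino acid. Phenylalanine (FARSA and FARSB beside FARS2) and the glutamate and proline enzymes (EPRS1 beside EARS2 and PARS2) do not match one to one and were left out. With TGF-alpha the cytosolic gene had the larger change in 11 of the 13 pairs, and the median difference within a pair was 0.48. In 9 pairs the cytosolic gene alone rose, in 2 (VARS and YARS) both rose, in NARS the mitochondrial gene alone was called, and in RARS neither was. The widest gaps were those of isoleucine, 1.25, and methionine, 1.05. For valine the 2 genes changed by the same 0.81, and for asparagine the difference was -0.07. With AP1510 the cytosolic change was the larger in 4 of 13 pairs and with Heregulin in 9 of 13, with median differences of -0.05 and 0.09. These comparisons share the Untreated arrays.

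**Figure D4:**
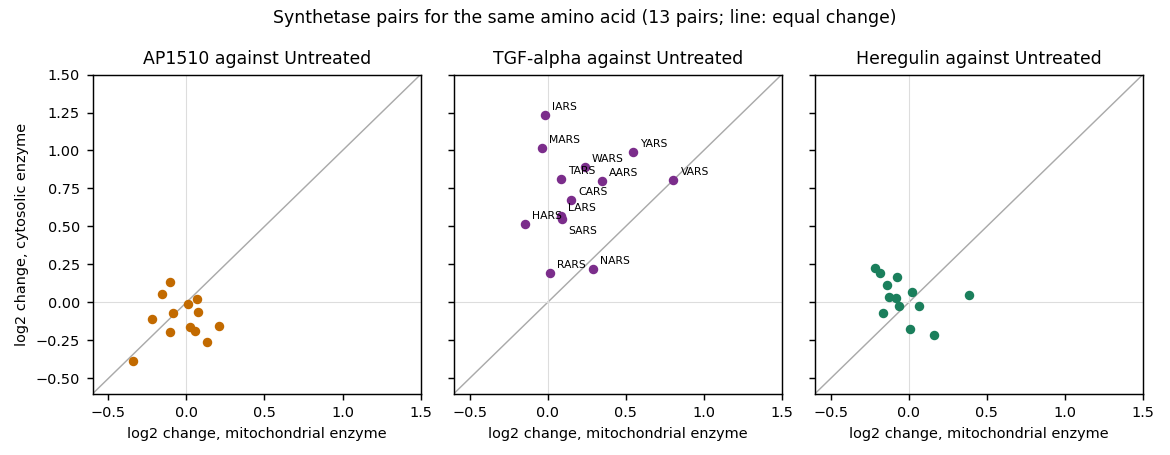
Log2 change against Untreated of the cytosolic gene (vertical axis) and the mitochondrial gene (horizontal axis) of 13 synthetase pairs, 1 panel per treatment; the line marks equal change. With TGF-alpha 11 of 13 pairs lie above the line, from IARS and MARS at the top to VARS on the line, and with AP1510 and Heregulin the pairs gather near 0.

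For histidine the cytosolic gene HARS1 and the mitochondrial gene HARS2 start back to back on chromosome 5. In the RefSeq promoter windows of GRCh38.p14 (250 bases before to 50 after each start) their starts point away from each other with 84 bases between them, and the windows overlap by 184 bases. These 84 bases, chr5:140691371-140691454, plus strand, are shown because both genes read out of them, HARS1 on the minus and HARS2 on the plus strand:
HARS1-HARS2: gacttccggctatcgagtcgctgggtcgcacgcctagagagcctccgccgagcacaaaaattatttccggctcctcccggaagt
HARS1, the cytosolic enzyme, had 8.72, 8.62 and 8.65 in AP1510 arrays, 9.18, 9.13 and 9.16 in TGF-alpha arrays and 8.82, 8.69 and 8.77 in Heregulin arrays, against 8.68, 8.61 and 8.65 in Untreated arrays, and rose with TGF-alpha by 0.51 ± 0.08 (1.43-fold, limma adjusted p = 8.7e-05). HARS2 had 8.25, 8.08 and 8.13 in AP1510 arrays, 7.95, 7.96 and 7.91 in TGF-alpha arrays and 7.93, 7.88 and 8.03 in Heregulin arrays, against 8.06, 8.14 and 8.06 in Untreated arrays. Its TGF-alpha arrays all lay below the Untreated ones, a difference of -0.15 ± 0.08 (95% interval -0.32 to 0.03) that did not pass the test (limma adjusted p = 0.22). The stretch is 59.5% G and C and holds 0 matches of the motifs TGATGNAA and CACGTG.

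The promoters of the synthetase genes were searched for 2 motifs on both strands, TGATGNAA, the core of the C/EBP-ATF response element, and CACGTG, the E-box that MYC binds. Neither motif contains the other. The RefSeq table held windows for 30 of the 35 genes; AARS2, LARS1, VARS1, VARS2 and YARS1 were not among them. TGATGNAA was found in 7 of 16 cytosolic genes (43.8%) and 1 of 14 mitochondrial genes (7.14%), beside 4.46% of the 27305 genes in the table. All 7 cytosolic genes were on the ATF4 list, of which 10 had a window. The 8 matches are printed as the gene's own strand reads, with the match in capitals, in GRCh38.p14, because 6 of the 7 cytosolic ones belong to genes called higher with TGF-alpha and the seventh, NARS1, does not.
AARS1: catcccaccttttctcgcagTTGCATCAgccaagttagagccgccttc
CARS1: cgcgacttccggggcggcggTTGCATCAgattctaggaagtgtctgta
GARS1: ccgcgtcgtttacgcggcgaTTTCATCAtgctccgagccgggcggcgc
IARS1: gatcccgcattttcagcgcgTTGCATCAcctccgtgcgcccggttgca
MARS1: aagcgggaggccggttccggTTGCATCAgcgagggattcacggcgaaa
NARS1: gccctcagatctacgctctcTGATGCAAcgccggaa
TARS1: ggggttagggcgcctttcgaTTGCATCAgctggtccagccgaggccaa
YARS2: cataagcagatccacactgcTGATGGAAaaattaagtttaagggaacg
They lie at chr16:70289666-70289713 (AARS1, minus), chr11:3057398-3057445 (CARS1, minus), chr7:30594825-30594872 (GARS1, plus), chr9:92293683-92293730 (IARS1, minus), chr12:57488044-57488091 (MARS1, plus), chr18:57621807-57621842 (NARS1, minus), chr5:33440947-33440994 (TARS1, plus) and chr12:32756067-32756114 (YARS2, minus).

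In 6 of the 7 cytosolic genes the match reads TTGCATCA or its reverse complement TGATGCAA, and in GARS1 it reads TTTCATCA. Most sat close to the gene start: the first base of the match was 33 bases before the start in GARS1, 13 in IARS1, 4 in MARS1 and 2 in CARS1, and at base 3 of the transcript in TARS1 and base 15 in NARS1. In AARS1 it was 187 and in YARS2 197 bases before. Of the cytosolic genes with a window but without the TGATGNAA letters, EPRS1, FARSB, HARS1, KARS1, SARS1 and WARS1 rose too, and FARSA, QARS1 and RARS1 did not pass. Whether the letters go with the rise was not tested. CACGTG was found in IARS1 alone of the 16 cytosolic genes (6.25%) and in CARS2, EARS2 and MARS2 of the 14 mitochondrial genes (21.4%), beside 8.77% of all genes. A match is a run of letters and not a measured binding site.

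Few synthetases passed the threshold with AP1510, which pairs the HER2 chimeras. Of 19 cytosolic genes 0 were called higher and 1 lower, and of 16 mitochondrial genes 0 were called by limma, where 1.47% of all genes were called, 0.771% higher and 0.7% lower. The medians were -0.07 and -0.04. At an unadjusted p under 0.05 there were 3 genes in each set, and 2038 of all 18417 genes. The 1 called gene was MARS1, with the array values above, lower by -0.38 ± 0.09 on the log2 scale (limma adjusted p = 0.044), opposite in sign to its rise with TGF-alpha. That call was lost in 12 of 20 alternative settings, with an adjusted p of up to 0.19. In 7 of 19 cytosolic genes the AP1510 arrays did not overlap the Untreated ones and lay below them, where the arrays of 17.3% of all genes did not overlap in either direction. Besides MARS1 these were AARS1 (-0.26 ± 0.09), CARS1, NARS1, VARS1, WARS1 and YARS1, and none of the 6 passed the test. The same held for 3 of 16 mitochondrial genes, MARS2 (-0.34 ± 0.10), SARS2 and IARS2.

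With Heregulin, limma called 0 of the 19 cytosolic genes, with a median of 0.07, where 8.5% of all genes were called, 3.45% higher and 5.06% lower. At an unadjusted p under 0.05 there were 3 of the 19, and 3734 of all 18417 genes. In 8 of the 19 the Heregulin arrays did not overlap the Untreated ones, which held for 4378 of all 18417 genes. They lay above in FARSA, HARS1, IARS1, KARS1, NARS1 and YARS1, and below in CARS1 and WARS1. Of the mitochondrial genes 1 was called higher and 1 lower, and the median was -0.08. VARS2 rose by 0.39 ± 0.10 (1.31-fold, limma adjusted p = 0.019). FARS2, the mitochondrial phenylalanyl enzyme, had 6.13, 6.02 and 6.08 in AP1510 arrays, 6.33, 6.44 and 6.13 in TGF-alpha arrays and 5.87, 5.75 and 5.79 in Heregulin arrays, against 6.10, 6.09 and 6.34 in Untreated arrays. Its Heregulin arrays were the lowest of the 12, and it fell by 0.37 on the log2 scale (SE 0.10, 1.29-fold, limma adjusted p = 0.026). Both calls were lost without Heregulin replicate 3 or Untreated replicate 3.

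Direct contrasts between treatments test whether their effects differed. TGF-alpha stood above AP1510 in 17 of 19 cytosolic genes, all but QARS1 and RARS1, with a median of 0.88, where 11.2% of all genes were called higher. This included all 13 on the ATF4 list, with NARS1 (0.38 ± 0.08, limma adjusted p = 0.0026). FARSA also passed here (0.40 ± 0.09, limma adjusted p = 0.0047). MARS1 had the widest gap, 1.40 ± 0.09 (2.63-fold, limma adjusted p = 2.5e-08). Of the mitochondrial genes 4 were called higher, VARS2 (0.60), YARS2 (0.47), SARS2 (0.31) and MARS2 (0.30).

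Heregulin stood below TGF-alpha in 15 cytosolic genes, all but FARSA, NARS1, QARS1 and RARS1, with a median of -0.78, where 11.8% of all genes were called lower. This contrast and the one with AP1510 share the TGF-alpha arrays. GARS1 differed by -1.27 ± 0.09, WARS1 by -1.07 ± 0.08 and MARS1 by -0.98 ± 0.09. Of the mitochondrial genes 3 were lower with Heregulin, YARS2 (-0.62 ± 0.10), FARS2 (-0.50 ± 0.10) and VARS2 (-0.42 ± 0.10). Between Heregulin and AP1510, 2 cytosolic genes were called higher with Heregulin, MARS1 (0.42 ± 0.09, limma adjusted p = 0.0081) and FARSA (0.36 ± 0.09, limma adjusted p = 0.027), where 3.27% of all genes were called higher. The FARSA call was lost in 8 of 20 alternative settings, with an adjusted p of up to 0.12, among them leaving out any Heregulin array or AP1510 replicate 2 or 3. The MARS1 call was lost in 1, with only the 2 groups in the fit (limma adjusted p = 0.056). In that contrast limma called 7.23% of all genes in either direction and 0 mitochondrial synthetases. At an unadjusted p under 0.05 there were 3 of the 16 mitochondrial synthetases, and 3738 of all 18417 genes.

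Other genes of the same pathways moved to differing degrees with TGF-alpha. On a list of ATF4 and its known targets outside the family, 30 genes were measured, of which 20 rose, 3 fell and 7 did not pass, with a median of 0.56. Among all genes, 12.5% were called higher and 13.4% lower. ASNS, the asparagine synthetase that makes the amino acid from aspartate, had 6.52, 6.48 and 6.53 in AP1510 arrays, 9.65, 9.69 and 9.59 in TGF-alpha arrays and 6.88, 6.66 and 6.60 in Heregulin arrays, against 6.93, 6.60 and 6.75 in Untreated arrays, a rise of 2.88 ± 0.10 (limma adjusted p = 9.6e-11). The serine synthesis enzymes PSAT1 (6.84-fold) and PHGDH (2.41 ± 0.09) and the translation repressor EIF4EBP1 (4.68-fold) followed. Those that fell were the stress factors ATF3 (-1.47) and DDIT3 (-0.65) and the amino acid transporter SLC7A5 (-0.27). ATF4 itself rose by 0.43 ± 0.08 (1.35-fold).

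**Figure D5:**
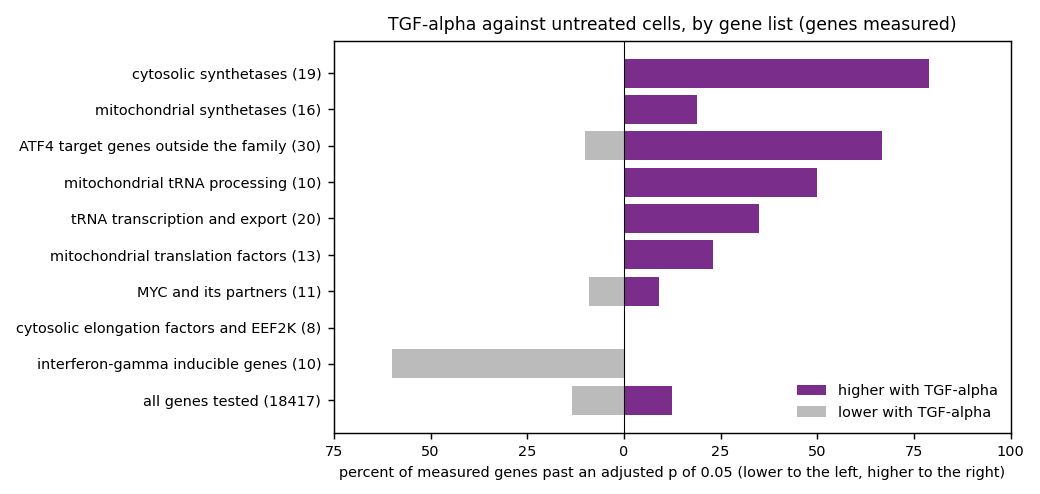
Percent of the measured genes of each list called higher (right) or lower (left) with TGF-alpha against Untreated, with all 18417 genes at the bottom. The bars reach 78.9% higher for cytosolic and 18.8% for mitochondrial synthetases, 66.7% for the ATF4 list outside the family and 12.5% for all genes.

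Of 20 measured genes of tRNA transcription and nuclear export, 7 rose and 0 fell with TGF-alpha, beside 12.5% and 13.4% of all genes. The 7 were led by the RNA polymerase III subunit POLR3G (1.45 ± 0.14) and XPOT, the tRNA exporter (1.40 ± 0.11). Among 10 mitochondrial tRNA processing genes 5 rose, with the pseudouridine synthase PUS1 first (1.43-fold), and among 13 mitochondrial translation factors 3 rose, with the elongation factor GFM1 first (1.55-fold). Limma called 0 of 8 genes of cytosolic elongation, which are 7 translation factors and EEF2K, the kinase that inhibits EEF2. At an unadjusted p under 0.05 there were 0 of the 8, and 6328 of all 18417 genes. Of MYC and 10 other genes of its network, 1 rose (MXD3) and 1 fell (MXD1), each 9.09% of the list and below the shares of all genes. Both encode factors that oppose MYC. MYC changed by -0.23 ± 0.08 with AP1510 (limma adjusted p = 0.26), 0.12 ± 0.08 with TGF-alpha (limma adjusted p = 0.34) and 0.33 ± 0.08 with Heregulin (limma adjusted p = 0.020). Against Untreated, that ATF4 list gave 0 calls by limma with AP1510. At an unadjusted p under 0.05 there were 8 of its 30 genes, and 2038 of all 18417 genes. With Heregulin 1 gene of that list rose (CEBPB) and 3 fell, PHGDH, DDIT3 and SLC1A5. These are 3.33% and 10% of the list, beside 3.45% and 5.06% of all genes. Of the 20 genes of tRNA transcription and export, 1 was called with Heregulin, POLR3G (0.74 ± 0.14, limma adjusted p = 0.0026).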

How the data were processed

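Gene expression was read on 12 Affymetrix arrays, 3 per group, from biotin-labelled total RNA. The deposited values are log2 intensities made by the authors with RMA, per the submitters' processing notes, which give no version; RMA corrects background, equalises array distributions and summarises probe sets. RMA narrows differences between arrays in overall level. Values ran from 1.75 to 14.2 with array medians of 5.33 to 5.44, and no further scaling was applied. Of 33297 probe sets, 19460 named 1 gene, 1754 several and 12083 none listed; only those naming 1 gene entered the fit. Symbols were updated through Entrez IDs to RefSeq (19429 matched), and each gene was represented by its probe set of highest mean across the arrays. Limma 3.58.1 in R 4.3.3 fitted 1 mean per group to all 12 arrays (8 residual and 7.55 prior degrees of freedom); contrasts were two-sided. The number of arrays limits the precision. The procedure was tested on simulated data. The members and lists were chosen with earlier results of these data known. All array values are given for the members with the largest called changes against Untreated (up to 8 cytosolic and 6 mitochondrial), WARS1, GARS1 and KARS1, and up to 4 called genes are named per pathway list; the array values of FARSA, QARS1, HARS1 and HARS2, and the names of ATF4-list genes that fell, were added after these values were seen. Alternatives were other normalization, probe set choice, filter, groups in the fit, moderation and leaving out each array.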

Additional observations from a re-analysis of the deposited data

How the results depend on the processing

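Each count was recomputed under 20 alternatives, and no call changed sign. With TGF-alpha against Untreated, 17 of 18 calls were kept in every one; the cytosolic count of 15 ran from 15 to 17 (with 1 lower call, QARS1, under renewed quantile normalization and without moderation), or was 13 of 17 on the list without GARS1 and KARS1, and the mitochondrial count of 3 ran from 2 to 4. For TGF-alpha against AP1510, 19 of 21 calls were kept (MARS2 and SARS2 were not) and for Heregulin against TGF-alpha 17 of 18 (LARS1 was not, without Heregulin replicate 2). The smaller counts moved. For AP1510 against Untreated the 1 cytosolic call became 0 with arrays centred on their medians, with all probe sets tested, with only the 2 groups in the fit and without moderation, and it ranged from 0 to 1 when each array was left out (0 without AP1510 replicate 1 or 2, any TGF-alpha or any Untreated replicate); the mitochondrial 0 became 1 with dim genes left out. For Heregulin against Untreated the 2 mitochondrial calls became 1 with all probe sets, only 2 groups or no moderation, and 0 to 2 on leaving out an array (1 without Heregulin or Untreated replicate 2). For TGF-alpha against AP1510 the 4 mitochondrial calls became 7 with dim genes left out and 2 with all probe sets, and 2 to 6 on leaving out an array (2 without TGF-alpha replicate 2 or 3, 6 without Heregulin replicate 2). For Heregulin against AP1510 the 2 cytosolic calls became 1 with centred arrays or all probe sets, 0 with only 2 groups and 4 with an intensity trend and robust prior, and 1 to 2 on leaving out an array (1 without AP1510 replicate 2 or 3 or any Heregulin replicate). For Heregulin against TGF-alpha the 3 mitochondrial calls became 5 with renewed quantile normalization, 6 with centred arrays and 6 with dim genes left out, and 3 to 5 on leaving out an array (5 without TGF-alpha replicate 1 or Heregulin replicate 2). The causes were not tested. The F test count of 21 stayed between 19 and 23. No paired analysis was possible because the groups share no replicate numbers in the labels.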
